A study of Mus musculus with 17 samples.

Results

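Mammary tumors that arose in mice carrying a p75 CUX1 transgene (n = 9) were compared with mammary tumors from mice carrying a p110 CUX1 transgene (n = 8), and the members of the comparison are all 17 tumors analyzed, assigned by their transgene label. All mice were of the FVB strain, each tumor came from a different mouse, and each transgene is driven by mouse mammary tumor virus regulatory sequences, which are active mainly in mammary epithelium. No tumor or gland without a transgene was among the samples, so every difference is between the 2 isoforms and not between a transgene and none, and the age of the mice is not given in the sources used here. Epithelial cells were cut from stained frozen sections with an infrared laser, and their cytoplasmic RNA was amplified in 2 rounds. The p75 group held 4 adenosquamous carcinomas (p75-47, p75-80, p75-94 and p75-101), 3 solid carcinomas (p75-129, p75-150 and p75-534), 1 adenomyoepithelioma (p75-90) and 1 adenocarcinoma (p75-216). The p110 group held 6 solid carcinomas (p110-121, p110-143, p110-225, p110-314, p110-360 and p110-416), by their labels, 1 adenoma (p110-98) and 1 adenomyoepithelioma (p110-374). Solid carcinoma was thus the main type found with both transgenes, and each gene was also compared within it, 3 p75 against 6 p110 tumors. The arrays of p75 tumors had all been scanned in a different year from those of p110 tumors, and in every value below the scan year cannot be told apart from the transgene.

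CUX1 is a homeodomain transcription factor that also binds DNA through Cut repeats. The full-length protein binds DNA only transiently and can displace activators from CCAAT motifs. The p110 isoform arises by proteolytic processing and the p75 isoform from an alternative transcription start. Both lack the amino-terminal part of the protein and bind DNA stably, with ATCGAT as a preferred sequence, and p110 keeps an additional Cut repeat. The protein is known for roles in cell cycle progression, DNA replication genes and DNA repair.

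A difference is given throughout as p75 minus p110, in log2 units of the tumor/reference ratio, where the reference is a pooled mouse RNA hybridized on the same array in the other color. Measured, for a gene and a tumor, means that each array of that tumor had a tumor color well above background. Of the genes named by rule, the cyclin-dependent kinase inhibitor gene Cdkn2d (higher in p110) and the zinc finger gene Zfp330 (higher in p75) were those that passed the test also without 4 weakly hybridized tumors and with probe composition taken out, as described below, although in the tumor color alone Zfp330 did not pass (0.33, limma adjusted p = 0.384). The 250 bases before the RefSeq start of each (GRCm38.p6, minus strand, chr9:21291210-21291459 and chr8:82774146-82774395) are shown because the compared proteins are transcription factors with known DNA motifs. Capitals mark CCAAT on either strand.
Cdkn2d: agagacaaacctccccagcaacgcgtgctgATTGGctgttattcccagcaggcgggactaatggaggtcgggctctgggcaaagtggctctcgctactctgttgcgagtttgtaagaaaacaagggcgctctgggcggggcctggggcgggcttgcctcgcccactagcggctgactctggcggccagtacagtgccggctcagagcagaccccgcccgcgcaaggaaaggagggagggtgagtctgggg
Zfp330: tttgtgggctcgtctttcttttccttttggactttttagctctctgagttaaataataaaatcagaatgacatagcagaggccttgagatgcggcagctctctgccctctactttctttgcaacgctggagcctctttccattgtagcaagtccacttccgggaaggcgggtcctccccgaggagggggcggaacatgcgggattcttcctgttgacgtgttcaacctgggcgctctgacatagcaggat
The Cdkn2d sequence held ATTGG, the reverse complement of CCAAT, 1 time, 216 bases before the start, and the Zfp330 sequence held neither CCAAT nor ATTGG. Neither held ATCGAT. In windows from 250 bases before to 50 after a start, ATCGAT (its own reverse complement) was found in 0 of 62 windows of the 51 genes with a RefSeq promoter among the measured differences counted below, and in 0.925% of all 32851 windows. CCAAT on either strand was found in 27 of the 62 windows (43.5%), against 37.4% of all windows. These are descriptions of letters in a window, and no binding was measured.

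Signal strength was not equal between the groups. The share of probes measured had a median of 35.6% in p75 tumors (27.2% to 61.8%) and 29% in p110 tumors (18.2% to 51.8%; exact two-sided permutation test, p = 0.223). The ratio of reference brightness to tumor brightness, each at its 95th percentile over spots, had a median of 1.04 in p75 tumors (0.806 to 2.92) and of 3.4 in p110 tumors (0.647 to 12.8; exact permutation p = 0.0205). This ratio was 4.09 in p110-121, 8.9 in p110-225, 11.9 in p110-374 and 12.8 in p110-98, and these 4 are called the dim p110 tumors below. The reference color alone, in which the same pooled RNA was hybridized on every array, differed between the p75 and p110 arrays at 11273 of 28786 genes (39.2%; limma adjusted p under 0.05), while the tumor color alone differed at 1693 (5.88%). Of the labels, that of p110-121 as an epithelial solid carcinoma went against its markers: the mean ratio of 17 luminal genes was -0.593 there and 1.168 or more in every other tumor, that of 22 immune genes was 1.982, the highest of all tumors, and the myeloid gene Lyz2 reached 7.17. Without this tumor 13 of the 26 genes that passed and are named by rule lost the call, each at a limma adjusted p between 0.0517 and 0.0749: Hbegf, Klhl30, Mrc2, Cd248, Rnd1, Prpf40b and Lig1, higher in p110, and NAP094232-001, Igsf3, Vwa5a, Csnk1g1, Eif2s3x and Spred2, higher in p75. In p75-150 the mean of 13 skeletal muscle genes was 5.623, against at most 0.877 in any other tumor. In tissue samples of this kind, fewer cells of a type and less RNA per cell cannot be told apart.

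Over all 17 tumors, 132 of 28786 genes differed between the transgenes (0.459%; limma, Benjamini-Hochberg adjusted p under 0.05), 61 of them higher in p75 (0.212%) and 71 higher in p110 (0.247%). At an unadjusted p under 0.05 there were 1731 genes higher in p75 (6.01%) and 2308 higher in p110 (8.02%). The counts moved with single tumors, from 17 higher in p75 and 18 higher in p110 without p75-47 to 313 and 860 without p110-314, and without p110-121 they were 62 (42 of the 61 among them) and 43 (37 of the 71 among them). Most of the calls higher in p75 lay near or below background: 19 of the 61 were measured in at least 5 of the 9 p75 tumors, and 16 were measured in no tumor at all. Of the 71 calls higher in p110, 63 were measured in at least 4 of the 8 p110 tumors. The rest of the text keeps to these 82 measured genes. They were counted as measured by the group in which they were higher, and 14 of the 19 and 38 of the 63 were measured in all 17 tumors. Their differences ran from 0.48 to 1.5 in the 19 genes higher in p75 (median 0.92) and, in size, from 0.42 to 5.82 in the 63 genes higher in p110 (median difference -1.24). The 9 p75 values and the 8 p110 values did not overlap in 17 of the 82 genes, and in 56 of all genes tested (0.195%).

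Within the solid carcinomas, the limma fit called 0 genes at an adjusted p under 0.05 (smallest adjusted p 0.129), with 1457 at an unadjusted p under 0.05 (5.06%). All 82 measured differences had the same sign there and at least 0.5 times their size in all tumors, but the 9 solid carcinomas are part of the 17 tumors that chose these genes, so this is a description. In 60 of the 82 genes the 3 p75 and 6 p110 solid carcinomas did not overlap, which held for 988 of all genes (3.43%). Because the study's own list of its solid carcinomas leaves out p110-121, the same was computed without it. With 5 p110 solid carcinomas the fit again called 0 genes (1586 at an unadjusted p under 0.05, 5.51%), all 82 differences kept their sign and at least 0.5 times their size, and the groups did not overlap in 60 of them and in 1404 of all genes (4.88%). A test of whether the difference was unequal in solid carcinomas and in the other tumors called 1 gene, and 2172 at an unadjusted p under 0.05. Without the 4 adenosquamous carcinomas, all of them p75, the fit called 0 genes.

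**Figure D1:**
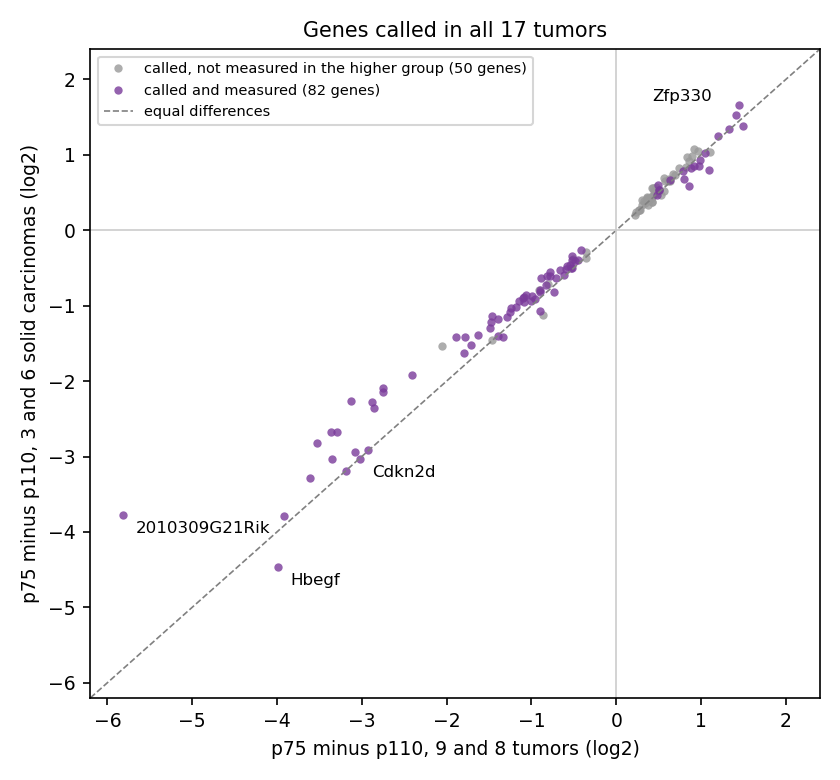
Difference p75 minus p110 (log2 tumor/reference ratio) of the 132 called genes in all 17 tumors (x axis) and in the 9 solid carcinomas (y axis), with 82 measured genes in purple, the others in gray and a dashed line of equal differences. All points lie in the lower left or upper right, and 2010309G21Rik (-5.82 and -3.77) lies farthest above the line.

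Both colors differed in these genes. In 57 of the 82 measured genes the reference color had the sign opposite to the ratio's, and in 25 the same sign. A reference difference of the same sign makes the ratio's difference smaller. Of the 12 largest differences higher in p110, 11 had a reference difference of the same sign, with a median of -1.41 over the 12. In 28 of the 82 measured genes, the tumor color alone passed the threshold with the same sign and differed by more than the reference color, and these were 22 of the 63 genes higher in p110 and 6 of the 19 higher in p75. In 29 of the 82 the reference color differed by more than the tumor color, against 48.4% of all genes tested. In 5 of the 82 the tumor color alone had the opposite sign. The measured genes also differed in the base composition of their 60-base probes: the median share of G and C was 38.3% for the 19 genes higher in p75 (35% to 45%) and 50% for the 63 genes higher in p110 (35% to 68.3%), against 43.3% for the 11906 genes measured in at least 8 tumors. Among those 11906 genes, the median difference in the reference color alone went from -0.45 in 2060 probes of up to 35% G and C to 0.54 in 2331 probes over 50%. In the tumor color it was -0.13 and 0.26 in the same bins, and in the ratio 0.19 and -0.22. Probes of up to 35% held 9 calls higher in p75 and 1 higher in p110, and probes over 50% held 0 and 28. With a smooth trend on probe G and C content taken out of each tumor's ratios, 26 of the 82 genes were still called. Of these, 8 were higher in p75 and 18 higher in p110, and all 82 kept their sign. Over all genes that fit called 24 higher in p75 and 21 higher in p110. Whether the reference color or the probe composition produced a given call was not tested beyond these values.

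**Figure D2:**
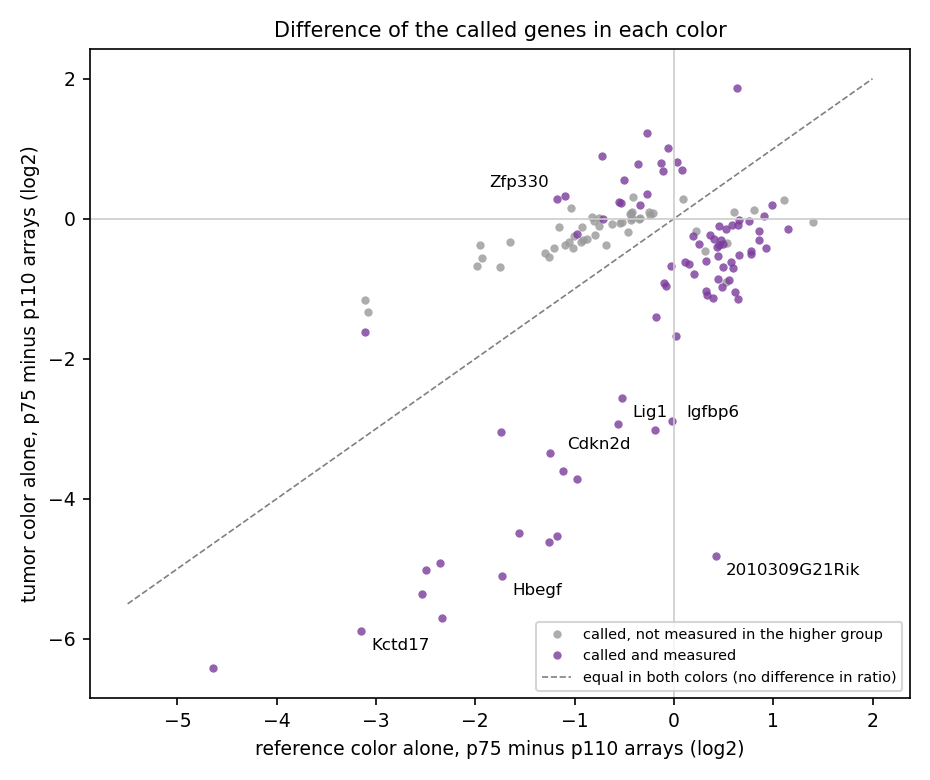
Difference p75 minus p110 in the tumor color alone (y axis, log2) against that in the reference color alone (x axis, log2) for the 132 called genes, with measured genes in purple and a dashed line where both colors differ equally. Cdkn2d (-3.02 in the tumor color, -0.19 in the reference) and Igfbp6 (-2.89 and -0.02) lie near 0 on the x axis, whereas Zfp330 lies at 0.33 in the tumor color and -1.1 in the reference.

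**Figure D3:**
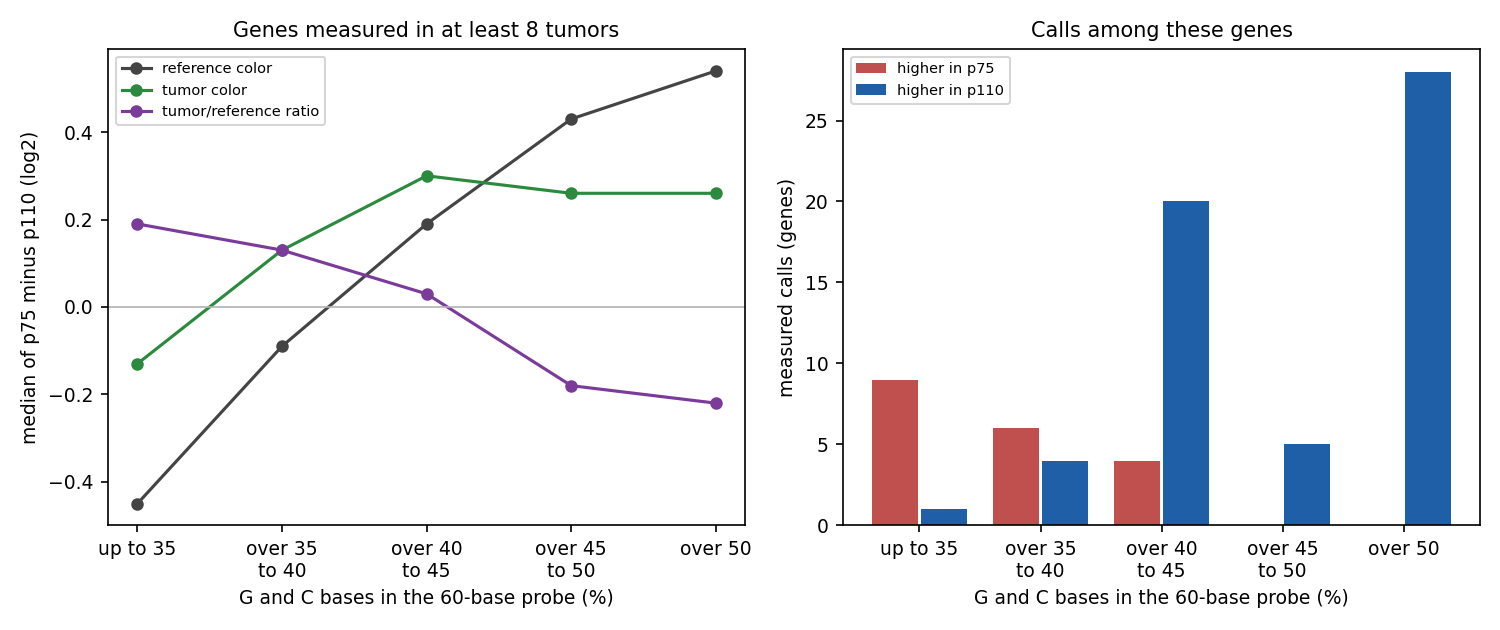
Left, median difference p75 minus p110 (log2) of the genes measured in at least 8 tumors, in 5 bins of the percentage of G and C bases in the probe, for the reference color, the tumor color and their ratio. Right, number of measured calls in the same bins, with 9 and 0 calls higher in p75 and 1 and 28 higher in p110 in the lowest and highest bin.

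The dim p110 tumors carried much of the largest differences. Without them, 9 p75 were compared with 4 p110 tumors, a split made after the data were seen. All 82 genes kept their sign and 77 kept at least 0.5 times their size. Of the 82, 21 were still called, 3 higher in p75 and 18 higher in p110. Over all 28786 genes that fit called 287 higher in p75 and 74 higher in p110, against 61 and 71 with all 17 tumors. The median of the 63 genes higher in p110 went from -1.24 to -0.78. That of the 12 largest went from -3.36 to -1.98, and in 9 of these 12 all 4 dim tumors lay above all 4 other p110 tumors. Of the 12 largest in each direction, Cdkn2d alone was still called among those higher in p110, and Zfp330 and Spred2 among those higher in p75. The part of signal strength in these differences was not tested further.

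Among the 12 largest measured differences higher in p110, the gene of the growth inhibitor Cdkn2d, which blocks the cyclin D-dependent kinases Cdk4 and Cdk6, stood out by its separation. Its log2 ratio was -2.92 at the lowest, -2.35 at the median and -1.85 at the highest in p75 tumors, and -1.25, 0.99 and 2.03 in p110 tumors. All 9 p75 tumors thus lay below all 8 p110 tumors. The difference was -3.02 ± 0.44 (SE; limma adjusted p = 0.0108; p = 4.11e-05 by the exact two-sided permutation test), and it was -3.03 ± 0.81 in the solid carcinomas (exact permutation p = 0.0238). The 4 dim p110 tumors lay between 0.81 and 2.03 and the other 4 between -1.25 and 1.18, so that the p75 tumors lay below both. Against those other 4 the difference was -2.05 (limma adjusted p = 0.0175), and without p110-121 alone it was -2.81 (adjusted p = 0.012). Its single probe (chr9:21165094-21165153 of the mm7 mouse genome, 40% G and C) was marked as an uneven spot on 7 of the 38 arrays, all of them from 5 p110 tumors, and settings that leave out such spots gave no value for it. The other members of this inhibitor family passed no threshold: Cdkn2c differed by -0.24, Cdkn2a by -0.18 and Cdkn2b by 0.45 (adjusted p 0.762, 0.839 and 0.827).

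Hbegf, which encodes a membrane-anchored ligand of the EGF receptor, was measured in all 17 tumors. Its log2 ratio was -3.48, -2.76 and 1.03 (lowest, median and highest) in p75 tumors and -0.87, 2.34 and 3.81 in p110 tumors. The groups overlapped, because the adenosquamous carcinomas p75-94 (1.03) and p75-80 (-0.34) lay above the lowest p110 tumors. The difference was -3.98 ± 0.78 (limma adjusted p = 0.0365). In the solid carcinomas the p75 values were -3.29, -3.34 and -3.2, below all 6 p110 values. The difference there was -4.46 ± 0.91 (exact permutation p = 0.0119, the smallest that 3 against 6 tumors can give). The tumor color alone differed by -5.11 and the reference color by -1.73 in the same direction. Without p110-121 the difference was -3.83 and no longer passed (adjusted p = 0.0594), and against the 4 brighter p110 tumors it was -2.5 (adjusted p = 0.219). Hbegf was the only member of a list of 25 growth factor receptors and ligands that passed (0 higher in p75 and 1 higher in p110). Of that list 15 were higher in p75, with a median difference of 0.05, where all genes have a median of 0 and 50.7% above 0.

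The largest difference was that of 2010309G21Rik, a cDNA of the joining and constant segments of immunoglobulin lambda (chr16:18748185-18748244, mm7). It was measured in 6 of the 9 p75 tumors, so the size of its difference rests partly on signal near background. Its log2 ratio was -7.28, -6.24 and -1.39 in p75 tumors, and -4.29, 0.3 and 3.66 in p110 tumors. All p75 tumors but p75-150 (-1.39), the tumor with the high skeletal muscle genes, lay at -4.63 or lower and thus below all p110 tumors. The difference was -5.82 ± 1.03 (limma adjusted p = 0.0237) and -3.77 ± 1.62 in the solid carcinomas, where the groups overlapped (exact permutation p = 0.0833). Against the 4 brighter p110 tumors it was -3.76 and no longer passed (adjusted p = 0.117). Here the reference color moved the other way (0.42) and the tumor color by -4.82. Immunoglobulin is made by B cells and plasma cells, and of 9 other immunoglobulin and plasma cell genes 7 were lower in p75, none past the threshold, with a median difference of -0.51. Outside that list, and chosen after its values were seen, the immunoglobulin kappa gene Igk-V21-12 also passed (-0.81, limma adjusted p = 0.0365, measured in 6 p75 and 7 p110 tumors). The mean of these 9 genes ran from -2.31 to -1.04 in p75 and from -2.21 to 0.25 in p110 tumors. The joining chain gene Jchain differed by -1.69 (adjusted p = 0.521). Irf4, which was measured in no p75 tumor and in 3 p110 tumors, differed by -1.1 (adjusted p = 0.225). Ighg, measured in 2 p75 and 3 p110 tumors, differed by -1.52 (adjusted p = 0.2), and its other 2 probes by 0.03 and -0.09. The part of B-lineage cells in the value of 2010309G21Rik was not tested.

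Spaca9, Nkain4 and Kctd17 were the other 3 of these 12 genes whose groups did not overlap. Spaca9, named for the sperm acrosome, ran from -3.86 to -0.66 (median -1.7) in p75 and from -0.41 to 3.99 (median 2.46) in p110 tumors. Its difference of -3.92 ± 0.64 (limma adjusted p = 0.0176) was -2.47 against the 4 brighter p110 tumors (adjusted p = 0.0627). Nkain4, whose protein interacts with the sodium pump, ran from -3.2 to -0.97 and from -0.9 to 3.04, so that the groups were narrowly apart. It differed by -3.61 ± 0.58 (limma adjusted p = 0.0176), and by -2.39 against the 4 brighter p110 tumors (adjusted p = 0.052). Its probe was measured in 4 of 9 p75 and 7 of 8 p110 tumors. A spot of it was marked as uneven on 4 of the 38 arrays, all from p110 tumors. A second Nkain4 probe, measured in 3 p75 and 2 p110 tumors, differed by -0.16. Kctd17, an adaptor of cullin ubiquitin ligases, ran from -2.31 to -0.67 and from -0.4 to 4.23, a difference of -3.35 ± 0.59 (adjusted p = 0.0229), which was -1.9 (adjusted p = 0.0513) against the 4 brighter p110 tumors. In the single colors Kctd17 differed by -5.89 (tumor) and -3.15 (reference), and the reference difference made that of the ratio smaller.

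Mrc2, a collagen receptor, and Cd248, or endosialin, are known from fibroblasts and pericytes. Mrc2, measured in 5 of the 9 p75 tumors, ran from -2.11 to -1.21 in p75 tumors and spread from -1.6 to 3.77 in p110 tumors, with a difference of -3.29 ± 0.69 (limma adjusted p = 0.0472). Cd248 ran from -2.64 to 0.62 and from -0.24 to 4.48, a difference of -3.18 ± 0.67 (adjusted p = 0.0472), and -3.2 in the solid carcinomas, where the groups did not overlap. Against the 4 brighter p110 tumors neither passed, with -1.51 for Mrc2 (adjusted p = 0.158) and -1.63 for Cd248 (adjusted p = 0.206). The second Cd248 probe, measured in all tumors, differed by -0.83 (unadjusted p = 0.0389), and the other 2 Mrc2 probes, measured in no tumor, by -0.04 and 0.34. In both genes the 4 dim p110 tumors (2.77 or more) lay above the other 4 (at most 1.67). Of 15 other fibroblast and matrix genes, 11 were lower in p75 and 0 passed, with a median of -0.13 that turned to 0.36 without the dim tumors and to 0.92 with median centering in place of loess. The mean of that list ran from -2.08 to -0.05 in p75 and from -3.28 to 0.72 in p110 tumors, Col1a2 differed by -0.38 (adjusted p = 0.865), and Dpt was measured in no tumor. The part of stromal cells was not tested.

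The other 4 of the 12 were Tram2, which takes part in translocation of collagen into the endoplasmic reticulum (-3.53 ± 0.61, adjusted p = 0.0222), the kelch gene Klhl30 (-3.36 ± 0.67, adjusted p = 0.0367), Rnd1, whose product loosens cell adhesion (-3.13 ± 0.64, adjusted p = 0.0422), and the splicing factor gene Prpf40b (-3.08 ± 0.59, adjusted p = 0.0326), all by limma. Klhl30 was measured in 4 and Tram2 in 5 of the 9 p75 tumors, so that some of their p75 values rest on signal near background. Against the 4 brighter p110 tumors none of these 4 passed: Tram2 differed by -2.1, Klhl30 by -1.79, Rnd1 by -1.81 and Prpf40b by -1.66 (adjusted p 0.0702, 0.184, 0.149 and 0.113). In each of them the highest p75 tumor lay above the lowest p110 tumor. The other 2 Rnd1 probes differed by -0.33 and 0.06, so only the brightest of 3 showed a difference of this size. Chosen after their values were seen, the other measured calls whose tumor color passed and exceeded the reference were Lrp1 (-2.93), an endocytic receptor, Igfbp6 (-2.88), which binds insulin-like growth factors, the small GTPase gene Rab2a (-2.86), the DNA ligase gene Lig1 (-2.75), the homeobox gene En2 (-2.75), Ap3d1 (-2.41), Slfn2 (-1.78), Prpf19 (-1.71), the lipid phosphatase gene Inppl1 (-1.33) and Parg (-0.95), which removes poly-ADP-ribose. For Igfbp6 the reference color differed by only -0.02 and the groups did not overlap. For En2, measured in 3 of the 9 p75 tumors, it differed by -4.64.

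**Figure D4:**
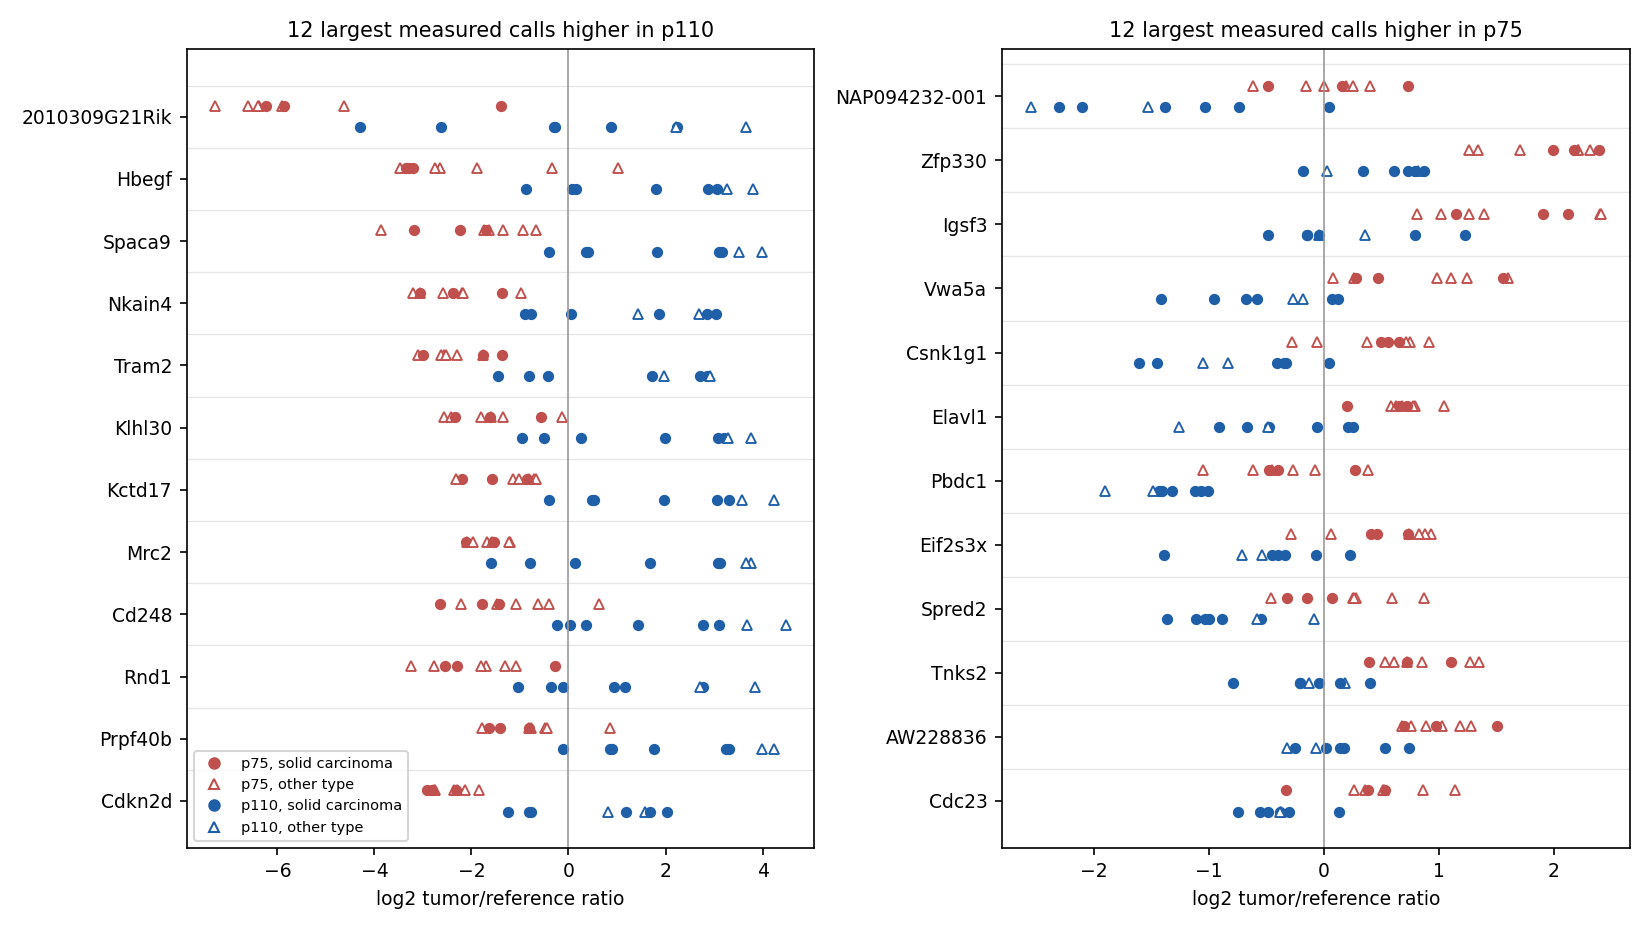
Log2 tumor/reference ratio in each tumor (x axis) for the 12 largest measured differences higher in p110 (left) and higher in p75 (right), with p75 tumors in red above p110 tumors in blue, filled circles for solid carcinomas and open triangles for other types. The groups are apart for Spaca9, Nkain4, Kctd17 and Cdkn2d on the left and for Zfp330 on the right, and the SD of the p110 tumors exceeds that of the p75 tumors in all 12 genes on the left.

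Among the genes higher in p75, Zfp330 (chr8:81326283-81326342, mm7) had log2 ratios of 1.26, 2.17 and 2.39 (lowest, median and highest) in p75 tumors and of -0.18, 0.67 and 0.87 in p110 tumors. No p75 tumor lay as low as the highest p110 tumor. The difference was 1.45 ± 0.19 (limma adjusted p = 0.00628; exact permutation p = 8.23e-05), and it was 1.66 ± 0.23 in the solid carcinomas, again without overlap (exact permutation p = 0.0119). It was 1.44 against the 4 brighter p110 tumors (adjusted p = 0.0142), 1.43 without p110-121 (adjusted p = 0.00973) and 1.5 with the trend on probe composition taken out (adjusted p = 0.0143). In the single colors, though, Zfp330 differed by 0.33 in the tumor color (adjusted p = 0.384) and by -1.1 in the reference color, so that the ratio rests mainly on the reference. Its second probe, measured in 4 tumors of each group, differed by -0.36.

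In 6 of the 12 genes higher in p75 the tumor color alone passed the threshold with the same sign and exceeded the reference. Csnk1g1, a casein kinase of membranes, ran from -0.28 to 0.91 in p75 and from -1.61 to 0.04 in p110 tumors, a difference of 1.21 ± 0.23 (limma adjusted p = 0.0333), with 1.87 in the tumor color and 0.63 in the reference. Against the 4 brighter p110 tumors it was 0.72 and no longer passed (adjusted p = 0.131). Its other 2 probes, measured in at most 3 tumors of a group, differed by -0.13 and -0.18. Pbdc1 on the X chromosome ran from -1.05 to 0.38 and from -1.9 to -1.01, so that only p75-90 overlapped the p110 tumors. It differed by 1.04 ± 0.18 (adjusted p = 0.0222), by 1.01 in the tumor color and by -0.06 in the reference. A second Pbdc1 probe, measured in no tumor, differed by 0.18. Eif2s3x, the X-linked gene of a subunit of translation initiation factor eIF2, differed by 0.99 ± 0.21 (adjusted p = 0.0488) and its other 3 probes by 0.24, 0.22 and 0. Tnks2, or tankyrase 2, a poly-ADP-ribosylating enzyme that destabilizes axin, ran from 0.39 to 1.35 and from -0.79 to 0.4, with a difference of 0.92 ± 0.16 (adjusted p = 0.0237). A second Tnks2 probe, measured in no p75 and 1 p110 tumor, differed by -0.06. Cdc23, which encodes a subunit of the anaphase-promoting complex, differed by 0.86 ± 0.16 (adjusted p = 0.0313). A second Cdc23 probe, measured in no tumor, differed by -0.03. Spred2, which restrains Ras-ERK signaling, differed by 0.98 ± 0.19 (adjusted p = 0.0367), and by 1.25 against the 4 brighter p110 tumors (adjusted p = 0.0141), without overlap, but it did not pass without p110-121 (adjusted p = 0.0601) or with the trend on probe composition taken out (adjusted p = 0.0668). The Spred2 probe used here was measured in 9 of 9 p75 and 4 of 8 p110 tumors, so some of its p110 values rest on signal near background. A second Spred2 probe, measured in 1 p75 and 5 p110 tumors, differed by -0.54.

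In the other genes higher in p75 the tumor color did not pass with that sign. Elavl1, whose product HuR stabilizes mRNAs with AU-rich elements, ran from 0.2 to 1.04 in p75 and from -1.26 to 0.25 in p110 tumors and differed by 1.1 ± 0.19 (limma adjusted p = 0.0222). Its other 2 probes had the same sign (0.68 and 0.48). Igsf3, an immunoglobulin-superfamily membrane protein gene, differed by 1.42 ± 0.28 (adjusted p = 0.0365; 1.32 and adjusted p = 0.0594 without p110-121), its second probe by 0.89, and it was measured in 9 of 9 p75 and 4 of 8 p110 tumors. Vwa5a differed by 1.33 ± 0.26 (adjusted p = 0.0367), and the unannotated AW228836 by 0.88 ± 0.15 (adjusted p = 0.0229). For NAP094232-001, a probe that the files describe as unknown and the largest difference of this direction at 1.5 ± 0.31 (adjusted p = 0.0472), the tumor color differed by -1.62 and the reference color by -3.11, so that its sign held in the ratio only.

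Cux1 itself was measured in all 17 tumors, with no difference past the threshold. Its log2 ratio was -2.12, -1.31 and -0.33 (lowest, median and highest; mean -1.31 ± 0.61 SD) in p75 tumors and -2.06, -1.34 and -0.48 (mean -1.27 ± 0.53 SD) in p110 tumors. The difference was -0.04 ± 0.27 (limma adjusted p = 0.97; exact permutation p = 0.9), and -0.06 ± 0.36 in the solid carcinomas. Over 20 alternatives it ran from -0.31 to 1.18, with a changed sign in 5 and an adjusted p of 0.124 or more. The other 2 Cux1 probes and 1 that the files list under its older symbol Cutl1 were each measured in at most 1 tumor and differed by -0.14, -0.04 and 0.06. Whether any of these probes lies in the transgene cDNA is not given in the sources used here, so the values do not check the transgenes. Of the 6 CUX and other Cut-repeat genes, 0 passed.

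Genes of DNA replication were mostly higher in p75, with 0 members past the threshold. Of 29 such genes, 27 were higher in p75, with a median difference of 0.68 (all genes 0), 0.68 in the solid carcinomas, 0.54 without the dim p110 tumors and 0.66 to 1.91 under the other scalings of the ratio. The tumor color alone had a median of 0.88, with 5 members past the threshold, all higher in p75 (3.11% of all genes passed in that direction in the tumor color), and the reference color 0.01. The helicase subunit gene Mcm6, its brightest member, ran from -1.68 to 0.1 in p75 and from -3.11 to 0.22 in p110 tumors, a difference of 0.81 ± 0.43 (adjusted p = 0.426). Over the list the groups overlapped widely: the mean ran from -1.545 in p75-90 to -0.218 in p75-534, and from -2.22 in p110-143 to -0.214 in p110-314. Of 25 mitosis and spindle checkpoint genes, 21 were higher in p75 and 0 passed (median 0.44, and 0.44 without the dim tumors). Their brightest member Birc5, or survivin, differed by 0.99 ± 0.52 (adjusted p = 0.429), and Aurka, a spindle kinase, by -1.18 (adjusted p = 0.222).

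In 3 lists 1 member passed, and each lay apart from its list. Lig1, the ligase that joins Okazaki fragments and was listed here with 28 other genes of DNA damage response and repair, ran from -1.96 to -0.29 in p75 and from -0.39 to 4.01 in p110 tumors. It differed by -2.75 ± 0.57 (limma adjusted p = 0.045; -2.62 and adjusted p = 0.0749 without p110-121, and -1.27 and adjusted p = 0.0946 against the 4 brighter p110 tumors), while 20 of the 29 members were higher in p75 (median 0.07). Rpl8, a protein of the large ribosomal subunit, ran from -2.64 to -0.83 and from -1.01 to 2, a difference of -1.89 ± 0.37 (adjusted p = 0.0367; -1.98 and adjusted p = 0.0456 without p110-121, and -1.33 and adjusted p = 0.0966 against the 4 brighter p110 tumors). The tumor color alone differed by -0.65 for Rpl8 (adjusted p = 0.135). Of the 35 ribosomal protein genes, 20 were higher in p75, with a median of 0.04, which was -0.07 after scaling the arrays to equal spread, 1.39 with median centering and 1.14 in the tumor color alone, where 19 passed, all higher in p75 (3.11% of all genes). The third was Hbegf. No member of the other lists passed, among them 26 cell cycle regulators, a list that does not hold Cdkn2d (13 higher in p75, median -0.01, and 0.73 with median centering), 17 β-catenin feedback targets (15 higher, median 0.49, and 0.04 in the solid carcinomas), 19 Wnt ligands (13 higher, median 0.03), 17 Notch genes (7 higher), 14 Hedgehog genes (8 higher) and 22 TGF-β and BMP genes (13 higher). Nodal, a TGF-β family ligand outside the last of these lists, was chosen after its values were seen and passed (-0.59, adjusted p = 0.0367), with -0.08 in the tumor color and 0.65 in the reference. Of 17 genes of the amino acid response, 7 were higher in p75, and the pseudokinase gene Trib3 was nearest to the threshold, at -1.23 (adjusted p = 0.0515).

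Genes of energy metabolism and of protein turnover had no member past the threshold either. Of 32 oxidative phosphorylation genes, 26 were higher in p75 and 0 passed, with a median of 0.38 that was 0.04 without the dim p110 tumors and 1.69 with median centering. In the tumor color alone 11 of them passed, all higher in p75 (3.11% of all genes). Of 26 proteasome genes, 18 were higher (median 0.32, 0.02 without the dim tumors and 1.63 with median centering), and 8 passed in the tumor color alone, all higher in p75 (3.11% of all genes). Of 22 glycolysis and hypoxia genes, 13 were higher (median 0.08, and 1.22 with median centering). The brightest member of the first list, Cox6a1, differed by 0.35 ± 0.19 (adjusted p = 0.436).

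No member of the epithelial cell type lists passed over all tumors. Without the dim p110 tumors, 287 of all 28786 genes passed higher in p75 and 74 higher in p110. In that fit Csn3 and Xdh of the milk list and Cdh2 and Twist1 of the epithelial-mesenchymal transition list passed. So did Crb3 of the junction list and, among all other lists, Trib3, Prdm1, Ifit2 and Uty. Of these, Cdh2, Ifit2 and Uty were measured in no tumor. Of 17 basal and myoepithelial genes, 12 were higher in p75 and 0 passed (median 0.63, and 1.21 without the dim tumors). Their mean was 1.73 or more in all 9 p75 tumors and in 5 p110 tumors, and it was 0.205 in p110-121, 0.067 in p110-314 and -0.099 in p110-416. The brightest member Acta2 differed by 0.58 ± 0.85 (limma adjusted p = 0.812), with 1.45 in the solid carcinomas and -1.75 in the other tumors. The basal keratin genes Krt5 and Krt14, which the naming rule did not pick, differed by 2.36 and 2.23 (adjusted p 0.461 and 0.149). Of 17 luminal genes, 10 were higher in p75 (median 0.04, -0.01 after scaling the arrays to equal spread and 0.73 with median centering), and the luminal keratin gene Krt18 differed by 0.35 ± 0.85 (adjusted p = 0.895; -0.47 without p110-121). Of 25 squamous and cornified envelope genes, 18 were higher in p75 (median 0.27, and -0.02 in the solid carcinomas). This mean was 2.315 in p75-80 and 1.6 in p75-94, both adenosquamous carcinomas, and at most 0.607 in the other 15 tumors. Milk protein and lactation genes had a median of -0.35 (4 of 14 higher), which was 0.58 in the solid carcinomas (9 of 14 higher), -1.96 without the dim tumors and 0.53 with median centering. Of 12 genes that rise in epithelial-mesenchymal transition, 5 were higher in p75 (median -0.19, with the sign turned under 4 of the 5 other scalings of the signal), and of 19 junction genes 13 (median 0.23, and -0.15 without the dim tumors).

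**Figure D5:**
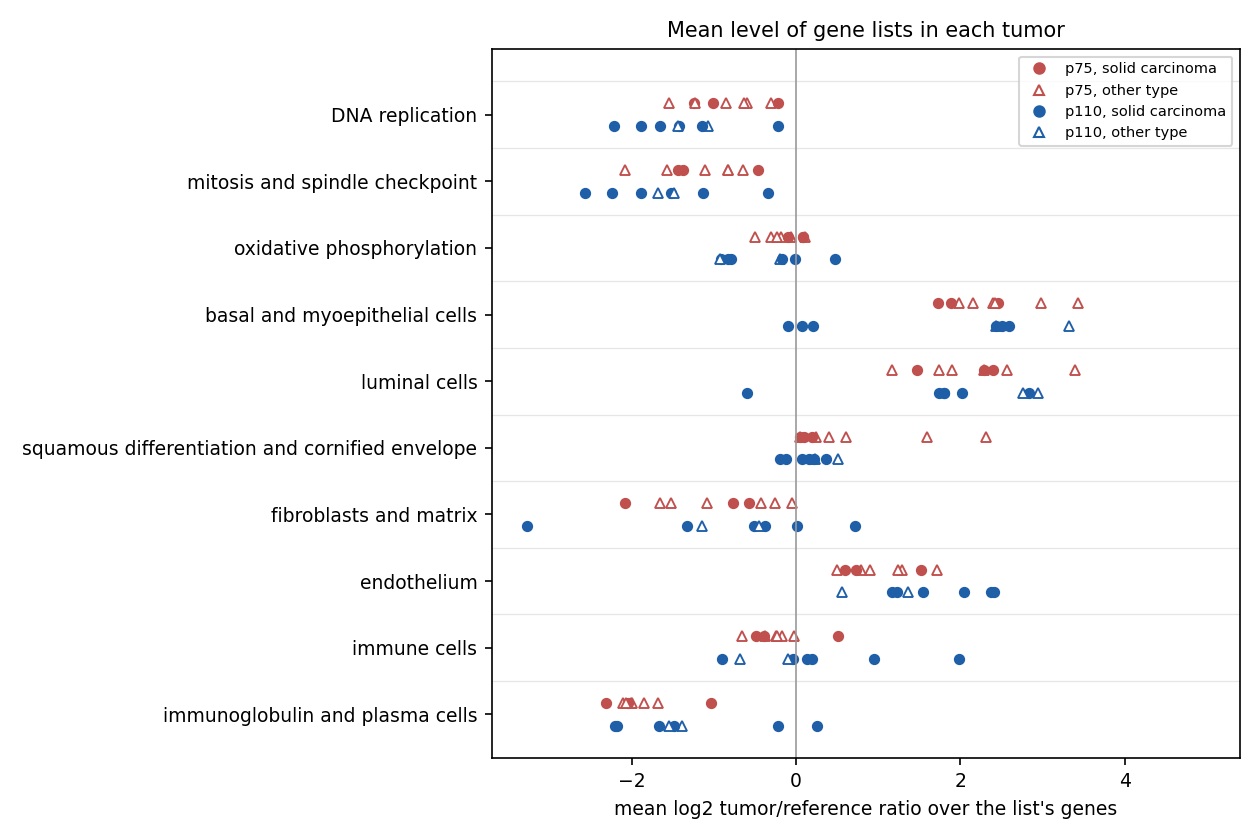
Mean log2 tumor/reference ratio over the genes of 10 lists (x axis) in each tumor, with p75 tumors in red above p110 tumors in blue, filled circles for solid carcinomas and open triangles for other types. The groups overlap in every list shown, the basal list is near 0 in 3 p110 solid carcinomas, and the squamous list is highest in p75-80 (2.315) and p75-94 (1.6).

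Genes of vessels and blood cells were mostly higher in p110, again with 0 members of the lists past the threshold. Genes of leukocytes and vessels outside the lists, chosen after their values were seen, did pass, higher in p110: Cd37 (-0.45, limma adjusted p = 0.0439), Gimap1 (-0.89, adjusted p = 0.0323), the phagocyte oxidase gene Cyba (-0.78, adjusted p = 0.0229) and Vash1, or vasohibin 1 (-1.09, adjusted p = 0.0488). In the tumor color alone none of these 4 passed. The tumor and reference colors differed by -0.11 and 0.46 for Cd37 and by -0.67 and -0.03 for Gimap1. For Cyba they differed by -0.36 and 0.5, and for Vash1 by -0.14 and 1.15. Cd37 was measured in 3 p75 and 4 p110 tumors. Also outside the lists, calls higher in p75 held the killer cell lectin-like receptor gene Klra20 (0.75), Lamp3 (0.61) and Olr1 (0.52). None of these was measured in a p75 tumor. Of 13 endothelial genes, 11 were lower in p75 (median -0.42, -0.88 in the solid carcinomas and -1.18 without the dim tumors). Esam, an adhesion molecule of endothelial junctions, differed by -1.89 ± 0.61 (adjusted p = 0.157), while Pecam1 and Tie1 were measured in no tumor. The endothelial mean ran from 0.49 to 1.71 in p75 and from 0.56 to 2.41 in p110 tumors. Of 22 immune cell genes, 17 were lower in p75, with a median of -0.19 that was 0.01 without the dim tumors and 0.42 with median centering. Lyz2 differed by -0.09 ± 1.03 (adjusted p = 0.98). Of 17 antigen presentation genes, 13 were lower (median -0.16, and 0.23 with median centering), and of 21 interferon-stimulated genes 9 (median 0.03, -0.26 after scaling the arrays to equal spread and 0.85 with median centering). Of 18 adipocyte and lipid synthesis genes, 10 were higher in p75 (median 0.02, -0.02 after scaling the arrays to equal spread, -0.55 without the dim tumors and 0.37 with median centering), and of 13 skeletal muscle genes 9 (median 0.34), with p75-150 far above the rest. Of 5 blood genes, all were lower (median -0.37). Stress and immediate early genes (11 of 22 higher, median 0, and 1.17 with median centering) and mammary stem and progenitor markers (13 of 19 higher, median 0.14, and 0.85 with median centering) had 0 members past the threshold as well. Among sex chromosome genes, the Y-linked Ddx3y, Eif2s3y and Uty were measured in no tumor. In the solid carcinomas the median turned below 0 for the interferon (-0.12), adipocyte (-0.11), glycolysis (-0.09), growth factor (-0.04) and Hedgehog (-0.01) lists. With median centering in place of loess, 30 of the 34 lists had a median above 0, against 21 as reported, and the 4 others were those of Cut-repeat, endothelial, immunoglobulin and blood genes.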

How the data were processed

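RNA of 17 microdissected tumors was hybridized on 38 2-color arrays with swapped dyes against 1 amplified reference RNA, 2 arrays per tumor and 4 for p110-143 and p110-360. The log2 tumor/reference ratios in the table deposited by the authors had been made with limma, and recomputation from the scanner files showed normexp (offset 50), loess within arrays and averaging of arrays (largest difference 4.98e-08). The intensity and background values of the deposited scanner files came from Feature Extraction 9.5.3.1 and are not normalized. Scanner marks of signal above background came from the same files.

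Control spots were left out and spots of a probe averaged. The brightest of 41174 probes stood for each of 28786 genes, and 22951 probes (55.7%) took their symbol from the RefSeq table. The deposited ratios, as 1 value per tumor, were fitted with limma 3.58.1 (lmFit and eBayes, R 4.3.3, statmod 1.5.0) on the transgene alone, over all tumors and over solid carcinomas, with p-values adjusted by Benjamini and Hochberg's method over the 28786 genes (threshold 0.05). Exact two-sided permutation tests of single values are reported unadjusted, beside the limma values of 57 named genes. Named genes were Cux1, the 12 largest measured differences in each direction with the same sign in solid carcinomas, and of each of 34 gene lists the members that passed and were measured (up to 4), or else its brightest. The members, lists and tests were chosen with earlier results of these data known. Single colors were compared after quantile normalization. The steps were tested on simulated data. Alternatives were other background, scaling and probe rules, single dyes, covariates, scan day (10) and slide (15) as random blocks, each tumor left out, and 3 chosen after seeing the data: the reference color alone, 4 dim p110 tumors left out, and a loess trend on probe G and C content (span 0.5) taken out. Figures were drawn with matplotlib 3.10.9 in Python 3.11.15. The number of arrays limits the precision.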

Additional observations from a re-analysis of the deposited data

Results flagged for a closer look

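In 118 checks of named genes within a transgene group, 5 had 1 tumor whose log2 tumor/reference ratio stood far from the rest of its group by Dixon's test, which chance gives in about 1 of 20 groups. Krt18 was at -4.91 in p110-121, where the nearest other p110 tumor was at -0.09, and Mfge8 was at -1.6 in the same tumor, against 2.64 in the nearest. Hba-a1 reached 3.88 in p75-150, against 0.85 in the nearest p75 tumor. 2010309G21Rik was at -1.39 in p75-150 (nearest -4.63), and Birc5 was at -3.27 in p75-90 (nearest -1.4).

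The reference color, which holds the same RNA on every array and enters no comparison by itself, differed between the arrays of p75 and p110 tumors at 11273 genes (39.2%) by limma with Benjamini-Hochberg adjustment, and its part in the differences between tumors cannot be told apart from the scan year.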

How the results depend on the processing

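The counts of genes higher in p75 and in p110, 61 and 71 as reported, were recomputed under each alternative. They stayed within 1.5 times with ratios made again from the scanner files (55 and 64), the mean of a gene's probes (45 and 59), a trended robust prior (53 and 61) and the share of measured probes as covariate (69 and 74). They came to 63 and 146 with no background correction, 150 and 132 with Feature Extraction's signals, 1114 and 77 with median centering in place of loess, 41 and 28 after scaling arrays to equal spread, and 895 and 798 with the tumor color alone. The share of calls higher in p75, 46.2% as reported, was 30.1% with no background correction, 93.5% with median centering and 59.4% with scaling. Genes measured in at least 8 tumors gave 17 and 128, arrays with the tumor in Cy5 67 and 150, and those with it in Cy3 28 and 37. Solid carcinoma as a covariate gave 69 and 254, solid carcinomas alone and all tumors without the adenosquamous carcinomas 0 and 0. Without p110-98, p110-225 and p110-374 the counts were 62 and 23, and without p110-121 as well, an alternative chosen after seeing the data, 287 and 74. Scan day as a random block gave 33 and 47 (correlation 0.00703), slide 463 and 508 (correlation 0.271). With the trend on probe G and C content taken out, also chosen after seeing the data, 24 and 21 were left. The cause was not tested.

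Leaving out 1 tumor gave 17 (without p75-47) to 313 (without p110-314) genes higher in p75 and 18 to 860 higher in p110, with the same 2 tumors at the ends and 18 without p75-94 too. Genes higher in p75 numbered 30 without p75-80, 23 without p75-94, 20 without p75-101, 23 without p75-129, 25 without p75-150, 21 without p75-216, 22 without p75-534, and 31 without p110-225 or without p110-374. Genes higher in p110 numbered 26 without p75-80, 122 without p75-90, 21 without p75-101 or p75-129, 25 without p75-150, 24 without p75-216, 20 without p75-534, 42 without p110-98, 43 without p110-121, 120 without p110-143, 23 without p110-225 and 24 without p110-374. Of the 26 named genes that passed, 6 passed in each of the 17 fits (Zfp330, Pbdc1, AW228836, Spaca9, Nkain4 and Cdkn2d), and 20 lost the call in 1 to 14 of them. Among solid carcinomas the counts were 0 and 0, with 1 gene higher in p75 without p75-534.

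NAP094232-001 reversed to -1.62 in the tumor color alone. Cux1 over all tumors (-0.04) ran from -0.31 to 1.18 over 20 alternatives, with a changed sign in 5, and in solid carcinomas it reversed to 0.98 with median centering and ran from -0.23 to 0.17 with 1 tumor left out. Alternatives made from the scanner files leave out spots marked as outliers, and 7 of 20 gave no value for Cdkn2d. No paired analysis was possible because the replicate numbers are those of different mice and are not shared between the transgenes. The number of arrays and the share of genes above background limit what could be detected.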
